A study of Mus musculus with 36 samples.

Results

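Ovalbumin and saline were compared in the lungs of KitWsh mice whose engraftment label is MCigeR. The comparison used 6 of the 36 arrays of the study: the 4 titled KitWsh.OVA.MCigeR and 2 of the 3 titled KitWsh.PBS.MCigeR. Both groups were female mice with the genotype label KitWsh/FcεRIγ-/-, on a C57BL/6 background, so the sash mutation at Kit, the FcεRIγ deficiency and the engraftment are shared by the treated and the control lungs. The OVA group had been given ovalbumin by 3 intraperitoneal injections of 50 µg in 0.1 ml PBS (days 1, 4 and 7) and then, starting on day 12, 20 µg in 30 µl into the nose once a week for 9 weeks. The PBS group received saline on that schedule. KitWsh mice lack mast cells. The labels do not say what the code MCigeR stands for, so it cannot be told from them whether the donor mast cells, the recipients or both lacked FcεRIγ. The other 4 kinds of mice were treated alike and serve for comparison: KitWsh_MC, KitWsh_MCifngR and unengrafted KitWsh mice, with 4 OVA and 3 PBS arrays each, and wild-type (WT) mice, with 4 and 4.

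Repeated ovalbumin challenge is a model of allergic asthma. Allergen-specific T cells and innate lymphoid cells release IL-4, IL-5 and IL-13, which turn airway secretory cells into goblet cells, draw in eosinophils and change the state of macrophages. Mast cells hold IgE on the receptor FcεRI, whose γ chain is encoded by Fcer1g and is shared with several IgG receptors, and cross-linking of that IgE by allergen releases their granules.

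PBS array 2 was left out. Its values correlated with those of the 6 arrays used at r = 0.512 to 0.558 (Pearson, across genes), while the 6 correlated with each other at 0.954 to 0.987. The 3′ actin control probe set exceeded the 5′ one by 8.43 log2 units on that array, against 1.46 to 2.58 on the 6, which is how RNA degradation shows on this platform. The 6 arrays carried the defining transcripts of lung: the surfactant gene Sftpc lay between 15.05 and 15.42 in OVA arrays and between 15.21 and 15.49 in PBS arrays (log2 intensity), and the club cell gene Scgb1a1 between 15.42 and 15.70 in OVA arrays and between 15.55 and 15.84 in PBS arrays. Every array was labelled female. None of the 6 arrays had signal of the Y-linked gene Kdm5d over log2 5, but 3 OVA arrays of other kinds did: WT array 4, at 7.08, and KitWsh_MCifngR arrays 2 and 3, at 6.52 and 6.48. WT array 4 also had Kit at 6.90, while the WT PBS arrays had it at 9.86 or higher. All values below are log2 intensities or differences of them, OVA minus PBS, each gene being represented by its brightest probe set. A difference is given ± its standard error from limma.

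Of 11087 genes tested, none was called at an adjusted p under 0.05 (limma, Benjamini-Hochberg; 0% in each direction), and 884 (7.97%) had an unadjusted p under 0.05, of which 520 (4.69%) were higher in OVA lungs and 364 (3.28%) lower. The lowest adjusted p was 0.0685, for Mmp12, Adipoq and Lum. Each gene was therefore described by its 6 single arrays. All 4 OVA arrays lay above both PBS arrays for 1016 genes (9.16%), and all 4 lay below both for 925 genes (8.34%). With a difference over 1 in size as well, these counts were 54 (0.487%) and 40 (0.361%). With 4 arrays against 2 there are 15 assignments of the labels, so an exact one-sided permutation test of a single gene cannot go below 0.0667. The median difference over all genes was 0.01.

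Among genes whose groups did not overlap, the 4 largest positive differences were those of Clca1, Chil4, Slc26a4 and Mmp12. Clca1, which encodes a protein that goblet cells secrete with mucus, was 6.91 ± 1.52 log2 units higher in OVA lungs. Chil4, a chitinase-like protein of the airway epithelium, had a fitted difference of 5.74 ± 1.18, with its PBS arrays under log2 5, where values have no order. The macrophage elastase Mmp12 was 2.84 ± 0.30 higher. The proteoglycan Lum, made by fibroblasts, was lower by 2.00 ± 0.21, written here as a size. The adipocyte hormone Adipoq had a fitted difference of -2.82 ± 0.30, which is no measured size because all 4 OVA arrays were under log2 5. Cxcl9, whose groups overlapped, had a difference of 2.94 ± 1.12. The RNA is of whole lung, so fewer cells of a type and less RNA per cell cannot be told apart.

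The promoters of 4 of the genes highest in OVA lungs are shown to set these loci before their values. Each runs 5′ to 3′ from upstream of the RefSeq start site to a little past it, on GRCm38.p6. STAT6, the factor that IL-4 and IL-13 activate, binds inverted repeats spelled TTCNNNNGAA, and other STAT factors bind TTCNNNGAA. Capitals mark either motif. Chil4 and Retnla respond to IL-4 and IL-13, Slc26a4 is the anion exchanger pendrin of secretory cells, and the Mmp12 sequence is that of the more upstream of its start sites.
Chil4, chr3:106219430-106219729, minus strand: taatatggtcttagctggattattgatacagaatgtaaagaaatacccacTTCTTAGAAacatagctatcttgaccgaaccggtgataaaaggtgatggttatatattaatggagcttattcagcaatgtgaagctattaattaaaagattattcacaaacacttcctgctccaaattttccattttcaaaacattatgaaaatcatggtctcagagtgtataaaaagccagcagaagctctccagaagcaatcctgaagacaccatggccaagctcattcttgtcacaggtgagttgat
Retnla, chr16:48842359-48842658, plus strand: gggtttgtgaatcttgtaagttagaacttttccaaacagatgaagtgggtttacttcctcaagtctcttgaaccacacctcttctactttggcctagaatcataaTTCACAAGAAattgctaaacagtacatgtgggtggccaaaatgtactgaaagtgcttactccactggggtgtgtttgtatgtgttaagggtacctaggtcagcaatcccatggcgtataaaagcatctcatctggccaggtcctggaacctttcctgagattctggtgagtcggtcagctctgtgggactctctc
Slc26a4, chr12:31559935-31560234, minus strand: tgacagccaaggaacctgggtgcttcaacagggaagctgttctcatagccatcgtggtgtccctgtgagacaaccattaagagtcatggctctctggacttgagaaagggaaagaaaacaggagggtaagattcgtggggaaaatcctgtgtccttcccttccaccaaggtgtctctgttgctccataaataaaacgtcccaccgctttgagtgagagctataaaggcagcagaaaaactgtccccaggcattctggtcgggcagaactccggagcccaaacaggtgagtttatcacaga
Mmp12, chr9:7344147-7344446, plus strand: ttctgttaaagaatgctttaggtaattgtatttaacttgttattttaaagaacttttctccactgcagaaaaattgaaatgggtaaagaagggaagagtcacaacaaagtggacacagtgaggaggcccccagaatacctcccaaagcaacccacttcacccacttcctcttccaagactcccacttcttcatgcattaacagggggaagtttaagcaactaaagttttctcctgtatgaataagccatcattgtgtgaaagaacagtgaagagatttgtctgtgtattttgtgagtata

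Counted from the start site, TTCNNNNGAA began at position -145 of Retnla and TTCNNNGAA at position -200 of Chil4. Neither motif was in the windows of Slc26a4 and Mmp12. Promoters were on record for 9 of the 12 highest and 9 of the 12 lowest genes. A gene was counted if any of its promoters matched, and shares are of all 27025 genes with a promoter on record. TTCNNNNGAA was in a promoter of 1 of the 9 highest (Retnla) and of none of the 9 lowest, against 8.01% of all genes. TTCNNNGAA was in that of 1 of the 9 highest (Chil4) and 1 of the 9 lowest (Cap1), against 9.55%. The AP-1 motif TGANTCA was in a promoter of 1 of the 9 highest (Mmp12, at its other start site) and of 1 of the 9 lowest (Coq8a), against 8.97%. The E-box CACGTG was in no promoter of either group of 9, against 8.09%. These 4 motifs read alike on both strands and were searched in every promoter. A match describes the letters only.

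In OVA arrays 1 to 4, Clca1 stood at 14.00, 7.91, 12.26 and 12.23, and in PBS arrays 1 and 3 at 5.98 and 3.41. OVA array 2 was far below the other OVA arrays and still above both PBS arrays. Chil4 gave 10.68, 5.61, 9.38 and 8.92 in OVA lungs and 2.85 and 2.96 in PBS lungs, where it lay under log2 5, so that the OVA mean was at least 12.5-fold higher than that floor. Again OVA array 2 was the lowest and OVA array 1 the highest. Slc26a4, which moves chloride, iodide and bicarbonate across the apical membrane, had 9.95, 7.42, 7.92 and 8.20 in OVA lungs and 4.95 and 4.84 in PBS lungs, at least 10.4-fold. OVA array 1 was again the highest and array 2 the lowest, with a wide gap to the PBS arrays.

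Mmp12 was the steadiest of the higher genes. It had 7.81, 7.27, 7.53 and 8.37 in OVA lungs and 5.15 and 4.66 in PBS lungs, 7.16-fold by the means (95% interval of the log2 difference 2.13 to 3.55; adjusted p = 0.0685 by limma). The OVA arrays spanned little more than a unit and lay over 2 units above the higher PBS array.

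Of the mucus genes, Muc5ac, the gel-forming mucin of goblet cells, had 8.11, 3.56, 4.47 and 5.56 in OVA lungs and 3.37 and 3.32 in PBS lungs. Only OVA arrays 1 and 4 were over log2 5, and OVA array 2 lay next to the PBS arrays. The difference of 2.08 ± 1.07 had a 95% interval of -0.41 to 4.58. Fer1l6, of the ferlin family, had 7.61, 3.33, 4.31 and 5.33 in OVA lungs, against 2.42 and 2.29 in PBS lungs. Fcgbp, a mucus protein that binds the Fc part of IgG, had 9.09, 6.28, 7.22 and 7.66 in OVA lungs, against 5.83 and 5.76. In these 3 genes the order of the OVA arrays was the same: 1 highest, then 4, 3 and 2.

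Retnla (RELMα), a product of macrophages and epithelium under IL-4 and IL-13, was high everywhere, with 14.30, 12.75, 13.72 and 13.83 in OVA lungs and 12.13 and 11.91 in PBS lungs (difference 1.63 ± 0.38). Anpep, the aminopeptidase CD13, had 8.74, 8.71, 6.78 and 7.72 in OVA lungs and 6.50 and 6.00 in PBS lungs. Rassf2, a RAS-association domain protein, had 8.29, 7.76, 6.28 and 6.58, against 5.58 and 5.13, but its second bright probe set differed by -0.03. Gas2l3, a cytoskeletal linker, and Oosp1, first described in oocytes, were 1.71 ± 0.51 and 1.90 ± 0.57 higher, with PBS array 1 close below the lowest OVA array in both. Over the 12 highest genes, OVA array 1 was the highest of the OVA arrays in 10 and OVA array 4 in 2. OVA array 2 was the lowest in 8.

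**Figure D1:**
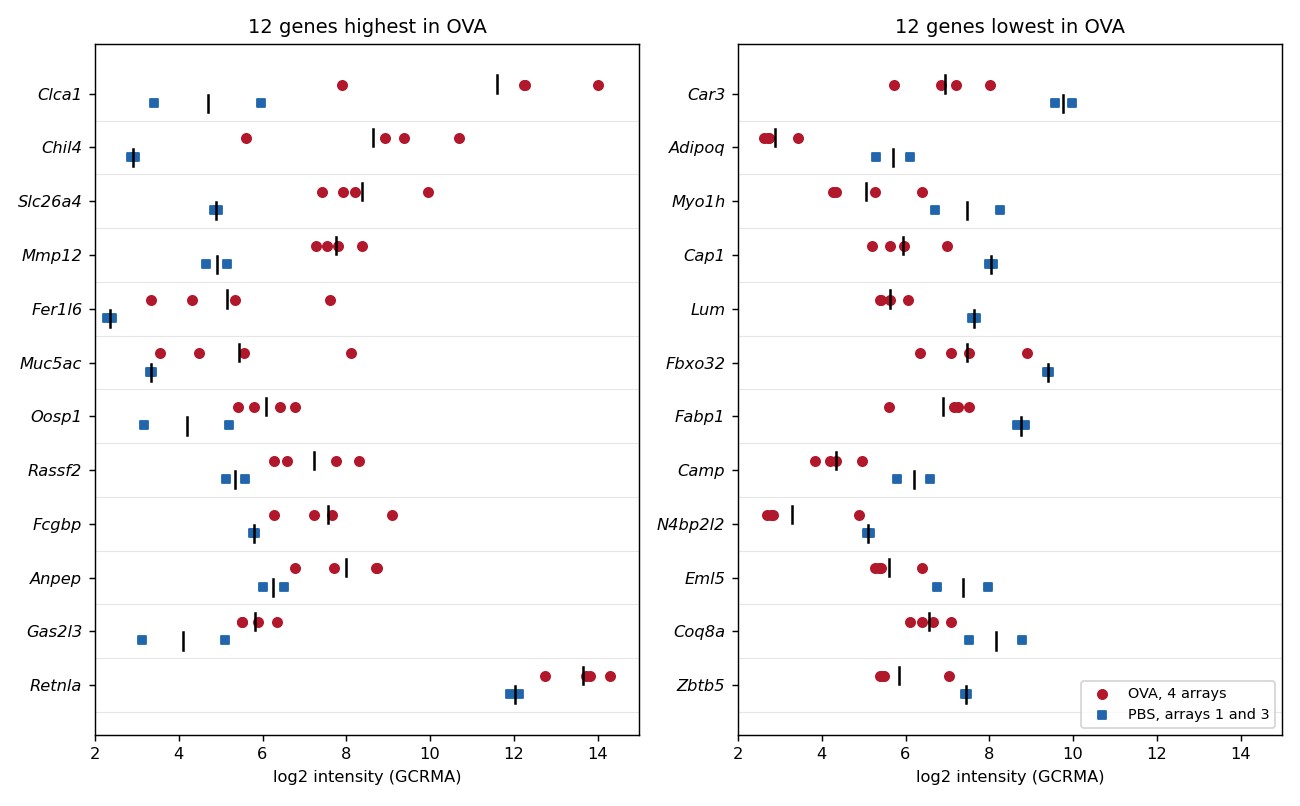
Log2 intensity (horizontal axis) of the 12 genes highest (left) and the 12 lowest (right) in OVA lungs of KitWsh_MCigeR mice; red circles are the 4 OVA arrays, blue squares PBS arrays 1 and 3, and black ticks the group means. In none of the 24 genes do the groups overlap, since the genes were chosen so; Clca1 spans 7.91 to 14.00 in OVA lungs, and Mmp12 7.27 to 8.37.

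Among the genes lower in OVA lungs, Adipoq had 2.74, 2.62, 2.72 and 3.44 in OVA lungs, near the bottom of the scale, and 6.10 and 5.30 in PBS lungs (95% interval -3.51 to -2.13; adjusted p = 0.0685 by limma). The PBS mean was at least 1.62-fold above the floor of log2 5 that no OVA array reached. Lum, which binds collagen fibrils, had 5.42, 5.39, 5.64 and 6.07 in OVA lungs and 7.67 and 7.57 in PBS lungs (95% interval -2.49 to -1.50; adjusted p = 0.0685 by limma). These were the 2 lower genes with the narrowest intervals. Car3, a carbonic anhydrase abundant in fat and muscle, had 7.19, 5.74, 6.86 and 8.01 in OVA lungs and 9.98 and 9.57 in PBS lungs (difference -2.82 ± 0.53).

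Fabp1, a fatty-acid binding protein listed here with alveolar macrophage genes, had 5.61, 7.51, 7.16 and 7.26 in OVA lungs, against 8.66 and 8.86 in PBS lungs. Camp, the neutrophil granule peptide cathelicidin, had 3.83, 4.34, 4.21 and 4.96 in OVA lungs, all under log2 5, against 6.59 and 5.79. Fbxo32, a ubiquitin ligase of muscle atrophy, had 7.08, 7.51, 8.90 and 6.34 in OVA lungs, against 9.37 and 9.44. In the last of these, OVA array 3 lay near the PBS arrays.

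OVA array 3 took that place in other genes too. Myo1h, a class I myosin, had 4.34, 4.26, 6.39 and 5.28 in OVA lungs and 6.69 and 8.27 in PBS lungs. Cap1, which binds actin monomers, had 5.64, 5.95, 7.00 and 5.20 in OVA lungs and 8.10 and 8.00 in PBS lungs. Zbtb5, a zinc finger protein, had 5.39, 5.45, 7.05 and 5.48 in OVA lungs and 7.46 and 7.41 in PBS lungs. Eml5 and Coq8a, a kinase-like protein of coenzyme Q synthesis, were lower by 1.76 ± 0.41 and 1.60 ± 0.38 (sizes). N4bp2l2 had a fitted difference of -1.81 ± 0.59, which is no measured size because all its OVA arrays were under log2 5. In N4bp2l2, Eml5 and Coq8a alike, OVA array 3 was the highest OVA array. Of the 12 lowest genes, OVA array 3 was nearest to the PBS arrays in 7 and OVA array 4 in 4. A dimmer probe set of Fbxo32, N4bp2l2 and Eml5, not over log2 5 in 2 of the 6 arrays, had a difference of the opposite sign. A second probe set that was over log2 5 in 2 arrays differed by only -0.32 in Fbxo32, -0.10 in Eml5 and -0.58 in Coq8a. In Car3 and Fabp1 such a probe set differed by -2.26 and -1.83.

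The gene lists put these single genes beside the others of their kind. The plot of the 37 lists shows each tested member. Goblet cell and mucus genes formed the list with the highest median, 1.82 over 10 tested genes of 17 listed, against 0.01 over all genes tested. Over all 17, tested or not, the median was 0.74. In 5 of the 10 all OVA arrays lay above both PBS arrays (9.16% of all genes did), and none lay below. Of the 10, 4 were tested only because their OVA arrays were bright enough, which favours a positive difference. OVA array 1 was the highest OVA array in all 10.

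IL-4 and IL-13 response genes split. Of 14 tested, 4 lay above in all OVA arrays (9.16% of all genes did) and none below, and the median was 0.30. Of the 14, 2 were tested only through their OVA arrays, and over the 18 listed genes with a probe set the median was 0.25. Chia1, the acidic chitinase, had 12.26, 11.35, 10.98 and 11.43 in OVA lungs and 9.96 and 10.50 in PBS lungs. Chil3 (Ym1), a macrophage protein, had 13.66, 13.89, 13.89 and 14.07, against 13.31 and 13.04. Alox15, a lipoxygenase of eosinophils and macrophages, overlapped: OVA array 2 was at 2.22, under both PBS arrays at 2.70 and 2.58, while OVA arrays 1, 3 and 4 were at 4.99, 6.28 and 5.59. Arg1, the arginase of alternatively activated macrophages, was not tested because only OVA array 1, at 7.37, exceeded log2 5. The other OVA arrays were at 3.26, 4.01 and 4.79, and the PBS arrays at 3.11 and 2.87.

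Upstream of that response, Il33, the epithelial alarmin that acts on innate lymphoid cells and mast cells, had 12.44, 11.85, 11.68 and 12.00 in OVA lungs and 11.20 and 10.79 in PBS lungs (1.00 ± 0.24; adjusted p = 0.513 by limma). Tslp, another epithelial alarmin, had 6.13, 6.78, 6.88 and 6.91 in OVA lungs and 6.97 and 6.95 in PBS lungs, a gap between the nearest arrays far smaller than the spread within the OVA group. The other 7 tested receptors and ligands of this axis overlapped, with a list median of 0.13. Of all genes, 9.16% lay above in all OVA arrays and 8.34% below.

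Mast cell transcripts, by which engraftment and expansion of mast cells are usually followed, were low in these lungs. Of 20 listed genes 18 had a probe set and 6 were tested. In 4 of the 6 all OVA arrays lay above both PBS arrays (9.16% of all genes did), 1 of the 6, Cma1, being tested only through its OVA arrays. The chymase Cma1 had 4.67, 4.60, 5.03 and 5.79 in OVA lungs and 2.29 and 4.54 in PBS lungs. The stem cell factor receptor Kit had 6.13, 6.01, 5.38 and 6.29, against 5.24 and 4.52. In unengrafted KitWsh mice Kit averaged 6.30 in OVA and 5.50 in PBS lungs, against 5.95 and 4.88 here. A positive Kit difference was thus not particular to engrafted mice. Hdc, which makes histamine, and Gata2, a transcription factor, were 0.37 ± 0.16 and 0.33 ± 0.16 higher, and other cells express both. Srgn and Rab27b overlapped.

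The tryptase Tpsb2 stayed under log2 5 on each of the 6 arrays, where values have no order, with 3.45, 3.15, 3.29 and 3.07 in OVA lungs and 2.37 and 2.38 in PBS lungs. The carboxypeptidase Cpa3 had 4.42, 3.48, 5.11 and 4.96 in OVA lungs and 3.18 and 4.23 in PBS lungs and overlapped. Tpsab1, Mcpt1 and Mcpt2 lay at the bottom of the scale in both groups. For the IgE receptor itself, Fcer1a, the α chain, had 3.31, 3.65, 4.07 and 3.69 in OVA lungs and 2.71 and 3.31 in PBS lungs, and Ms4a2, the β chain, 2.72, 2.73, 3.48 and 3.48 in OVA lungs and 3.16 and 3.00 in PBS lungs. Neither α nor β chain was over log2 5 on any of these arrays, so they have no order here.

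Levels of the mast cell proteases in OVA lungs were set beside those of the other kinds. Cma1 averaged 5.02 ± 0.55 in MCigeR OVA lungs (SD, n = 4), against 7.48 ± 0.49 in KitWsh_MC, 7.79 ± 1.54 in KitWsh_MCifngR, 3.54 ± 0.83 in KitWsh and 2.53 ± 0.26 in WT OVA lungs (SD, n = 4 each). Cpa3 averaged 4.49 ± 0.74 in MCigeR OVA lungs, against 6.30 ± 0.83 in KitWsh_MC, 7.40 ± 1.70 in KitWsh_MCifngR, 3.17 ± 0.16 in KitWsh and 3.13 ± 0.07 in WT. All KitWsh and WT OVA arrays were under log2 5 for both proteases, as were 2 of the 4 MCigeR OVA arrays for Cma1 and 3 of the 4 for Cpa3, so no order is read between them. All KitWsh_MC and KitWsh_MCifngR OVA arrays were over log2 5 and above each MCigeR OVA array for both. These differences between OVA groups were not tested.

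Fcer1g, the γ chain, was measured at 10.25, 9.37, 9.55 and 9.79 in OVA lungs and 9.72 and 9.31 in PBS lungs. The groups overlapped, and the level resembled the 9.00 to 10.29 spanned by the group means of the other kinds. Array signal of a deleted gene depends on where the probes lie relative to the deletion, which the labels do not give, so this value does not check the genotype. None of 12 tested Fc receptor and signalling genes was free of overlap, and their median difference was 0.34. Of all genes tested, 9.16% lay above in all OVA arrays and 8.34% below. Fcgr4, an activating IgG receptor that pairs with the γ chain, had 7.76, 7.15, 7.12 and 7.49 in OVA lungs and 7.14 and 5.56 in PBS lungs. Fcgr2b, the inhibitory IgG receptor, and Pigr, which carries IgA across epithelium, differed by 0.68 ± 0.40 and 0.78 ± 0.32.

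**Figure D2:**
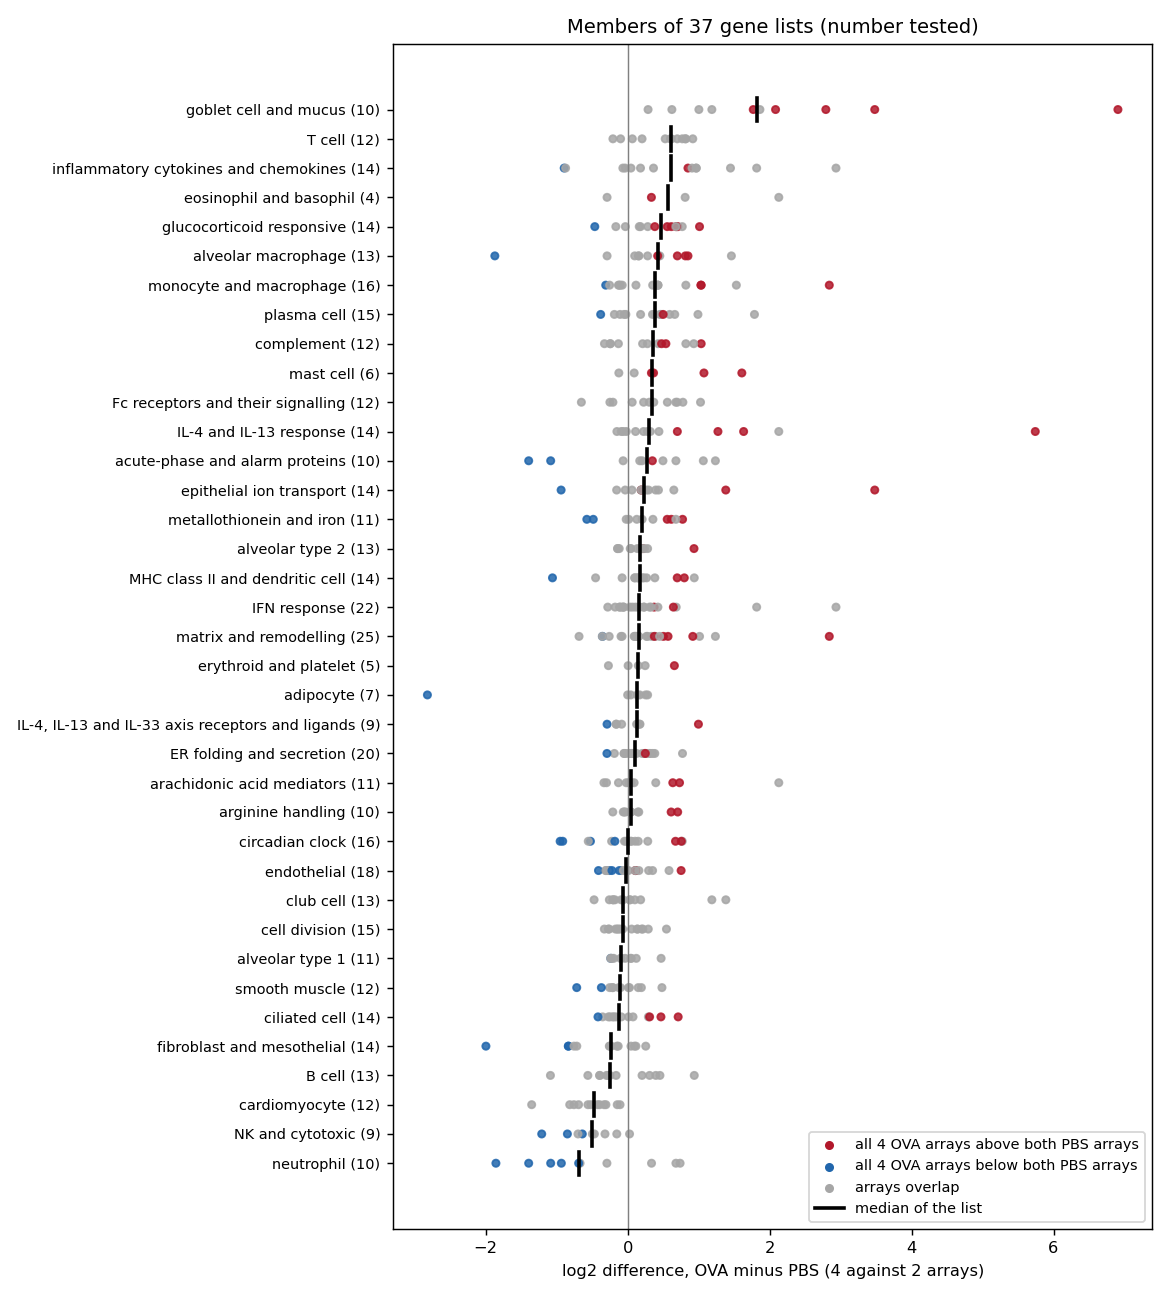
Log2 difference, OVA minus PBS (horizontal axis), of every tested member of 37 gene lists, ordered by the list median (black tick); red points have all 4 OVA arrays above both PBS arrays, blue points all 4 below, and grey points overlap. Goblet cell and mucus genes lie at the top with a median of 1.82 and neutrophil genes at the bottom with -0.68.

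Neutrophil genes had the lowest median, -0.68 over 10 tested genes, against 0.01 over all genes tested. Camp was tested only through its PBS arrays, and over the 14 listed genes with a probe set, tested or not, the median was -0.27. In 5 of the 10 all OVA arrays lay below both PBS arrays (8.34% of all genes did), and in none above. S100a9, a subunit of the alarm protein calprotectin, had 10.69, 10.41, 11.49 and 11.38 in OVA lungs and 11.97 and 12.81 in PBS lungs. S100a8, its partner, had 10.97, 10.97, 11.08 and 11.42, against 11.88 and 12.51. Ngp and Mmp9, stored in neutrophil granules as Camp is, were lower by 0.93 and 0.69 in size. Camp had a fitted difference of -1.86, which is no measured size because all its OVA arrays were under log2 5. The median was negative against either PBS array alone, at -0.52 against array 1 and -0.74 against array 3.

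NK and cytotoxic genes gave a median of -0.50 over 9 tested, 3 of them below in all OVA arrays (8.34% of all genes were) and none above. Gzma, a granzyme, had 8.90, 9.02, 9.60 and 9.45 in OVA lungs and 10.24 and 10.67 in PBS lungs. Klra8, an activating NK receptor, had 6.16, 6.71, 6.01 and 6.48, against 6.93 and 7.44. Gzmb had 6.09, 5.89, 5.94 and 6.02, against 6.27 and 6.97. The groups were a full unit apart by their means in Gzma and closer in the other 2.

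Lymphocyte genes depended on which PBS array stood for the control. All 12 tested T cell genes and all 13 tested B cell genes were higher on PBS array 1 than on PBS array 3, by medians of 1.75 and 2.02, against 0.01 over all genes. No T cell or B cell gene was free of overlap, while 9.16% of all genes lay above in all OVA arrays and 8.34% below. The T cell median was -0.39 against PBS array 1 and 1.49 against PBS array 3, and the B cell median -1.13 and 0.89. Cd28, the T cell costimulatory receptor, had 5.51, 5.13, 5.24 and 5.52 in OVA lungs and 5.34 and 3.72 in PBS lungs. Cd5 had 5.69, 4.74, 4.12 and 4.81, against 5.17 and 2.68. Ms4a1 (CD20), a B cell surface protein, had 9.08, 8.73, 8.86 and 9.07 in OVA lungs and 10.35 and 8.64 in PBS lungs, and Cr2, a complement receptor of B cells, 5.02, 5.08, 4.76 and 5.77, against 7.45 and 5.04. The PBS arrays lay farther apart than the OVA arrays in each of these 4 genes.

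Plasma cell genes showed the same split, with all 15 higher on PBS array 1. Mzb1, a chaperone of antibody secretion, had 9.63, 10.23, 9.91 and 10.15 in OVA lungs and 10.58 and 7.40 in PBS lungs. Derl3, of the same secretory pathway, had 6.65, 6.95, 6.25 and 6.79, against 6.63 and 3.12. The µ heavy chain Ighm had 13.94, 14.24, 14.54 and 14.49, against 14.63 and 12.66. Igha, the heavy chain of IgA, was the 1 member above in all OVA arrays, with 14.58, 14.73, 14.63 and 14.70 in OVA lungs and 14.31 and 14.01 in PBS lungs, and Prdm1 the 1 member below (-0.38). Of 14 immunoglobulin genes tested, 4 lay above in all OVA arrays and none below. Of all genes tested, set beside both lists, 9.16% lay above and 8.34% below. All 14 immunoglobulin genes were higher on PBS array 1 than on PBS array 3.

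**Figure D3:**
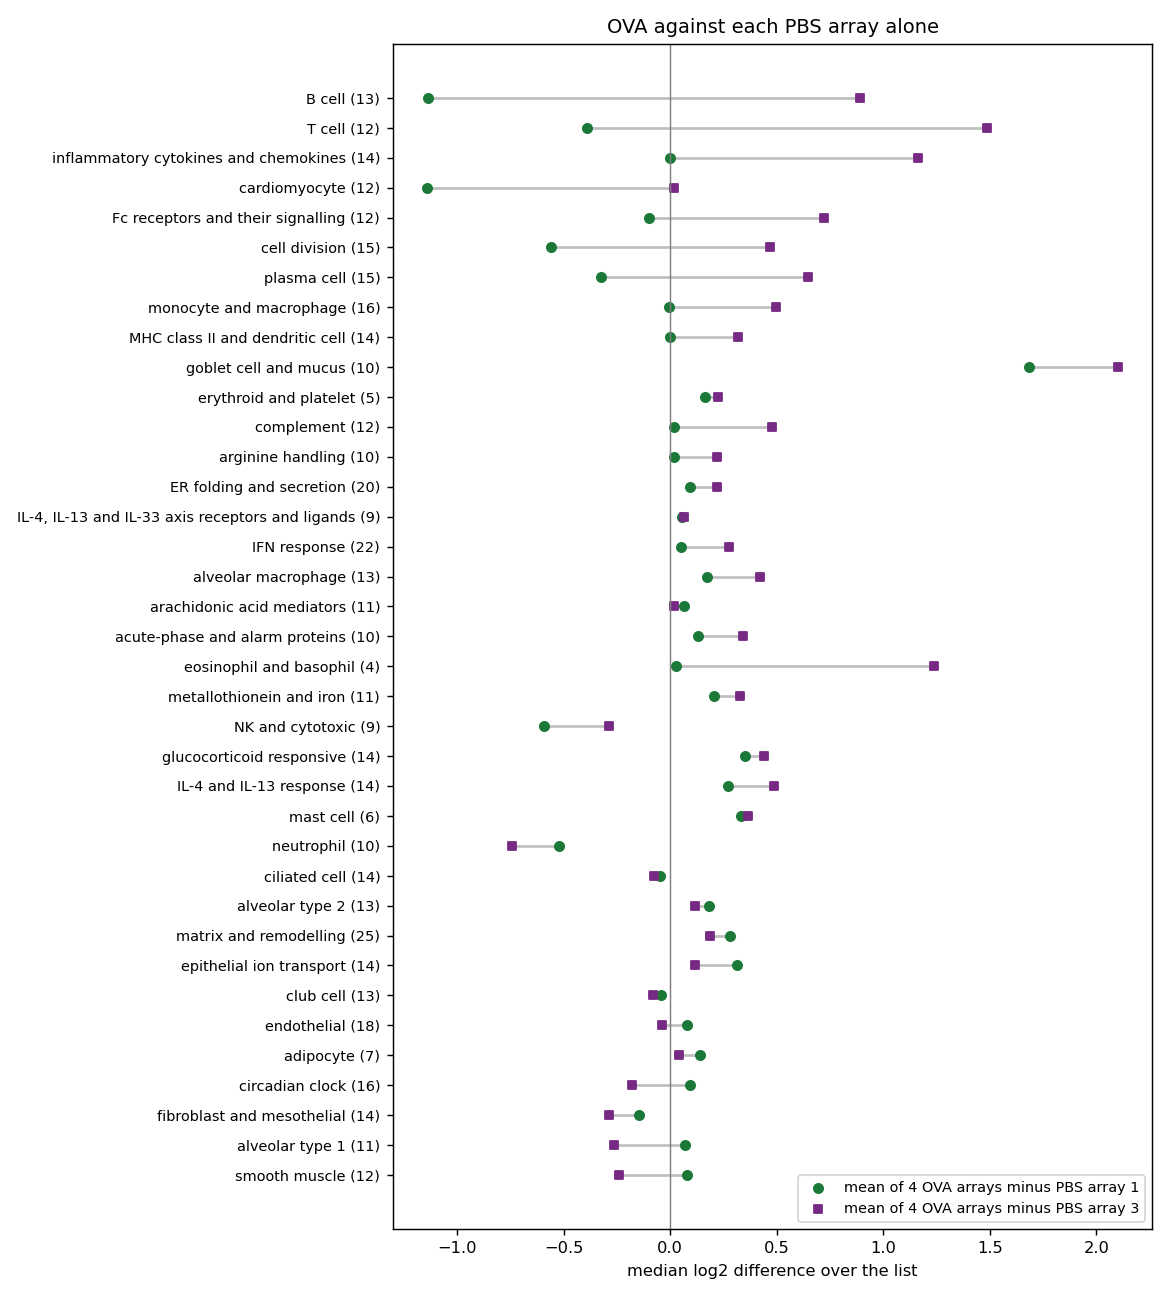
Median log2 difference over each of 37 gene lists between the mean of the 4 OVA arrays and PBS array 1 alone (green circles) or PBS array 3 alone (purple squares), ordered by the distance of the PBS arrays. B cell genes lie at -1.13 against array 1 and 0.89 against array 3, while goblet cell and neutrophil genes keep their sign against both.

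Inflammatory chemokines followed both patterns, with OVA array 1 the highest OVA array in 10 of 14 and PBS array 1 above PBS array 3 in 12 of 14. Their median was 0.61, with 1 gene above in all OVA arrays (9.16% of all genes were) and 1 below (8.34%). Cxcl9, a chemokine that interferon induces and that draws T cells, had 10.98, 7.86, 8.49 and 10.02 in OVA lungs and 8.22 and 4.59 in PBS lungs. OVA array 2 lay below PBS array 1, so that the difference of 2.94 ± 1.12 did not separate the groups. Cxcl10 had 10.49, 6.60, 7.48 and 8.74, against 6.85 and 6.17, and Ccl8 11.97, 8.93, 9.38 and 10.31, against 10.33 and 7.07. Ccl12 differed by 0.97 ± 0.73. The gene above was Ccl6, a macrophage chemokine, with 12.76, 12.83, 12.81 and 12.93 in OVA lungs and 12.19 and 11.78 in PBS lungs. The gene below was Il1b, with 6.71, 5.71, 6.71 and 6.65, against 7.11 and 7.57.

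Interferon response genes had a median of 0.16 over 22 tested. OVA array 1 was the highest OVA array in 21 of the 22, against 2523 of all 11087 genes. Only Ifngr2, a chain of the interferon-γ receptor, and Irf1 lay above in all OVA arrays (9.16% of all genes did), by 0.64 ± 0.33 and 0.37. Ifngr2 had 7.67 on OVA array 1 and 6.60, 6.57 and 6.53 on the others, against 6.07 and 6.32 in PBS lungs. Of the 10 acute-phase genes, S100a8 and S100a9 were below (8.34% of all genes were) and Lbp above (0.35). Saa3, which macrophages and epithelium make in inflammation, had 11.76, 7.04, 7.98 and 9.51 in OVA lungs and 9.41 and 6.60 in PBS lungs, and Timp1, an inhibitor of metalloproteinases, 9.63, 6.05, 5.64 and 6.82, against 6.36 and 5.24. Both overlapped, and OVA array 1 was the highest in both.

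Monocyte and macrophage genes were higher on PBS array 1 than on PBS array 3 in 12 of 16, and OVA array 1 was the highest OVA array in 9 of 16. In 3 of the 16 all OVA arrays lay above: Mmp12, C1qc and Gpnmb, the last a glycoprotein of lipid-laden macrophages. Of all genes tested 9.16% lay above and 8.34% below. Gpnmb had 8.15, 8.62, 7.63 and 7.74 in OVA lungs and 7.29 and 6.72 in PBS lungs. C1qc, a chain of the complement component C1q, had 9.82, 8.51, 8.65 and 9.03, against 8.41 and 7.53. Csf1r, the receptor for the macrophage growth factor, lay below by 0.31 in size. Ms4a7 overlapped (1.53 ± 0.56), with OVA array 2 at 7.60 and PBS array 1 at 7.83. The list median was 0.39. It was 0.50 against PBS array 3 and -0.0030 against PBS array 1.

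Of 13 alveolar macrophage genes, 4 lay above (Ccl6, Itgax, Chil3 and Plet1) and 1 below (Fabp1), with a median of 0.42. Across all genes tested, 9.16% lay above and 8.34% below. Itgax (CD11c), an integrin of alveolar macrophages and dendritic cells, had 9.85, 9.40, 9.31 and 9.61 in OVA lungs and 8.96 and 8.50 in PBS lungs. Marco, a scavenger receptor, overlapped, with 8.36, 7.07, 7.26 and 7.30 in OVA lungs and 7.39 and 4.68 in PBS lungs. Of 14 dendritic cell and MHC class II genes, Ctss, a protease of antigen processing, and Flt3, a growth factor receptor, lay above by 0.70 ± 0.22 and 0.80 ± 0.27. Cd209a, a lectin of monocyte-derived dendritic cells, lay below, with 5.12, 5.43, 5.82 and 6.04 in OVA lungs and 6.66 and 6.67 in PBS lungs. C1qc, the terminal component C6 and properdin (Cfp) lay above among 12 complement genes, whose median was 0.35.

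Eosinophil and basophil genes were thinly covered, with 4 tested of 16 listed and only Gata2 above in all OVA arrays (9.16% of all genes were). Alox15, Prg2 and Siglecf overlapped. None of 15 tested cell division genes was free of overlap (9.16% of all genes lay above and 8.34% below). Their median was -0.07, and all 15 were higher on PBS array 1 than on PBS array 3. Top2a, a topoisomerase of dividing cells, had 7.99, 6.70, 6.67 and 7.72 in OVA lungs and 7.43 and 6.02 in PBS lungs, and Rrm2, a subunit of ribonucleotide reductase, 8.74, 7.74, 7.36 and 8.19, against 8.43 and 7.00.

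Glucocorticoid-responsive genes had 6 of 14 members above in all OVA arrays (9.16% of all genes were) and 1 below (8.34%), with a median of 0.47, which was 0.35 against PBS array 1 and 0.44 against PBS array 3. Tsc22d3 (GILZ), a transcriptional regulator that glucocorticoids induce, had 12.19, 12.03, 11.51 and 11.43 in OVA lungs and 10.71 and 10.84 in PBS lungs. Fkbp5, a chaperone of the glucocorticoid receptor, had 8.88, 8.34, 8.83 and 9.00, against 8.18 and 7.93. Cdkn1a, a cell-cycle inhibitor, had 11.29, 11.25, 10.81 and 10.85, against 10.56 and 10.16. Sgk1, Mt1 and Mt2 were the others above, and Pdk4, a kinase of pyruvate metabolism that the same hormones induce, lay below by 0.46 in size. The lowest adjusted p in this list was 0.513, for Tsc22d3 (limma).

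Clock genes lay on both sides, with 2 of 16 above (9.16% of all genes were) and 4 below (8.34%) and a median of 0.01. Per3 had 6.30, 7.16, 6.71 and 6.84 in OVA lungs and 7.75 and 7.66 in PBS lungs. Dbp, an output of the clock, had 5.46, 5.99, 6.23 and 5.87, against 7.32 and 6.29. Nr1d2 and Tef also lay below, by 0.52 and 0.18 in size. Bhlhe40, a clock repressor, had 9.83, 9.52, 9.42 and 9.68, against 9.11 and 8.59, and Per2 lay above by 0.67. Per1 overlapped, with 8.79, 8.67, 6.90 and 7.35 in OVA lungs and 6.82 and 7.50 in PBS lungs. The labels used here do not give the hour of killing, and its part in these values was not tested.

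Matrix genes had 5 of 25 members above (Mmp12, Mmp14, Tnc, Ccn2 and Mmp2) and Col5a1 below, with a median of 0.16. Among all genes tested 9.16% lay above and 8.34% below. Mmp14, a membrane-bound collagenase, had 9.95, 9.12, 8.47 and 8.73 in OVA lungs and 8.31 and 7.98 in PBS lungs. Col1a1, the main chain of collagen I, overlapped, with 9.42, 7.97, 7.34 and 8.74, against 7.62 and 7.09. Fibroblast and mesothelial genes had none of 14 above and 3 below: Lum, Dcn and Pi16. Dcn (decorin), a proteoglycan like lumican, had 10.51, 10.53, 11.13 and 11.30 in OVA lungs and 11.35 and 12.05 in PBS lungs. Pi16, of adventitial fibroblasts, had 6.22, 6.58, 6.84 and 6.42, against 7.77 and 6.92. The list median was -0.24.

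Heart and fat markers were followed as signs of other tissue in the samples. All 12 cardiomyocyte genes, which enter lung samples with the heart and the pulmonary veins, had a negative difference (median -0.47), but the median was -1.14 against PBS array 1 and 0.02 against PBS array 3. Nppa, atrial natriuretic peptide, had 7.37, 4.55, 6.40 and 5.92 in OVA lungs and 8.79 and 6.04 in PBS lungs, and Myl7, the atrial light chain, 10.35, 8.47, 10.97 and 10.52, against 11.41 and 10.26. Of 7 tested adipocyte genes Adipoq alone was free of overlap (9.16% of all genes lay above and 8.34% below). The other 6 had a positive difference, with a list median of 0.14. Fabp4, a fatty-acid binding protein of fat cells, had 9.37, 9.49, 9.23 and 9.40 in OVA lungs and 9.40 and 8.78 in PBS lungs. The fat content of the samples was not measured otherwise, and its part in the Adipoq and Car3 values was not tested.

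In epithelial lists, alveolar type 2 genes had 3 of 13 above (9.16% of all genes were above and 8.34% below): Etv5, a transcription factor of these cells, with 10.84, 10.86, 10.04 and 10.45 in OVA lungs and 9.56 and 9.66 in PBS lungs, and Sftpd and Abca3 by 0.21 and 0.19. Ciliated cell genes had Foxj1, the master regulator of cilia, Dnah9 and Dynlrb2 above and Mlf1 below, with a median of -0.13 over 14. None of 13 club cell genes was free of overlap. Reg3g, an antibacterial lectin, had 11.61, 7.81, 10.16 and 10.51 in OVA lungs and 10.70 and 6.58 in PBS lungs, and the mucin Muc5b 10.91, 8.93, 9.60 and 9.50, against 9.10 and 7.99. Alveolar type 1 genes had only Pdpn below (-0.24) and a median of -0.09. Ion transport genes had Slc26a4, Scnn1b and the glucose transporter Slc5a1 above, the last with 6.45, 5.63, 6.36 and 6.39, against 5.39 and 4.27, and the water channel Aqp4 below, with 6.25, 6.44, 7.28 and 7.18, against 7.78 and 7.67.

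The remaining lists are given by count, to be read beside 9.16% of all genes above and 8.34% below. Endothelial genes had Cdh5 (0.75 ± 0.25), Vwf and Esam above and Ednrb, Cldn5, Sox17 and Eng below, with a median of -0.02 over 18. Smooth muscle genes had Cnn1 (-0.72 ± 0.21) and Tpm2 below of 12, with a median of -0.11. Metal and iron genes had Slc39a14, Mt1 and Mt2 above and the iron exporter Slc40a1 and hepcidin (Hamp) below of 11. Of 11 genes of arachidonic acid metabolism, Tbxas1, the thromboxane synthase, and Ptges, a prostaglandin E synthase, lay above by 0.73 ± 0.18 and 0.64 ± 0.20. Of 10 genes of arginine handling, Arg2 and the arginine transporter Slc7a2 lay above by 0.70 ± 0.17 and 0.61 ± 0.18. Of 20 genes of ER folding, Hsp90b1 and Sel1l lay above and Ddit3 below, and of 5 erythroid and platelet genes only Slc4a1 lay above.

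The 24 genes were then read in the other 4 kinds of mice, whose arrays are not shared with this comparison. Differences there came from a fit of 35 arrays with 1 spread over all groups. All 12 highest genes had a positive difference in KitWsh_MC mice, and 12 of 12 rose at an adjusted p under 0.05 (10.4% of all genes tested rose). In WT mice 12 of 12 were positive and 10 rose (4.00%), in KitWsh mice 12 and 7 (1.39%), and in KitWsh_MCifngR mice 10 and 1 (0.406%). Clca1 differed by 7.39 ± 1.75 in KitWsh_MC mice, 6.42 ± 1.75 in KitWsh_MCifngR, 6.55 ± 1.75 in KitWsh and 8.09 ± 1.62 in WT. The secretory genes were positive in each kind of mouse, and Oosp1 and Rassf2 were the 2 with a negative sign in KitWsh_MCifngR mice.

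The 12 lowest genes had a negative difference in 12 of 12 in WT mice, where 8 fell (5.57% of all genes tested fell), and in 12 of 12 in KitWsh_MC mice, where 3 fell (9.95%). In KitWsh_MCifngR mice 9 were negative and in KitWsh mice 8, and none fell in either (0.334% and 5.32% of all genes did; limma). Adipoq fell in WT mice (fitted difference -2.86 ± 0.67). Its fitted differences were -1.23 ± 0.72 in KitWsh_MC, -2.41 ± 0.72 in KitWsh_MCifngR and -2.10 ± 0.72 in KitWsh mice. None of these is a measured size. All KitWsh_MC arrays were under log2 5 for Adipoq, so no order is read there. All KitWsh OVA arrays were under it too, as were the OVA medians of WT (2.65) and KitWsh_MCifngR mice (2.94). Lum fell by 1.71 ± 0.43 in WT and by 1.38 ± 0.47 in KitWsh_MC mice. Fabp1 fell by 2.75 ± 0.55 in WT mice and by 3.49 ± 0.59 in KitWsh_MC mice, and its difference was 0.83 ± 0.59 in KitWsh_MCifngR and 0.69 ± 0.59 in KitWsh mice. Cap1, Eml5, Coq8a and Zbtb5 were negative in WT mice and between -0.16 and 0.06 in KitWsh mice. Their PBS means were lower in KitWsh than in MCigeR mice: 5.75 against 8.05 for Cap1 and 5.43 against 7.37 for Eml5. For Coq8a they were 6.57 against 8.15, and for Zbtb5 5.75 against 7.44. N4bp2l2 was negative in WT mice and under log2 5 on all KitWsh arrays, so no order is read there.

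Across all 11087 genes, the differences in MCigeR mice correlated with those of WT mice at r = 0.680, of KitWsh_MC mice at 0.476, of KitWsh mice at 0.346 and of KitWsh_MCifngR mice at 0.146. These are descriptions over genes, which are not independent. Without the 3 arrays that had Y-linked signal, an alternative chosen after seeing the data, 11 of the 12 highest genes rose in WT mice (9.8% of all genes tested rose) and 6 of the 12 lowest fell (9.3% fell). In KitWsh_MCifngR mice none of the 24 was then called by limma (0.595% of all genes rose and 1.07% fell), and the correlations were 0.653 with WT and 0.117 with KitWsh_MCifngR mice.

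**Figure D4:**
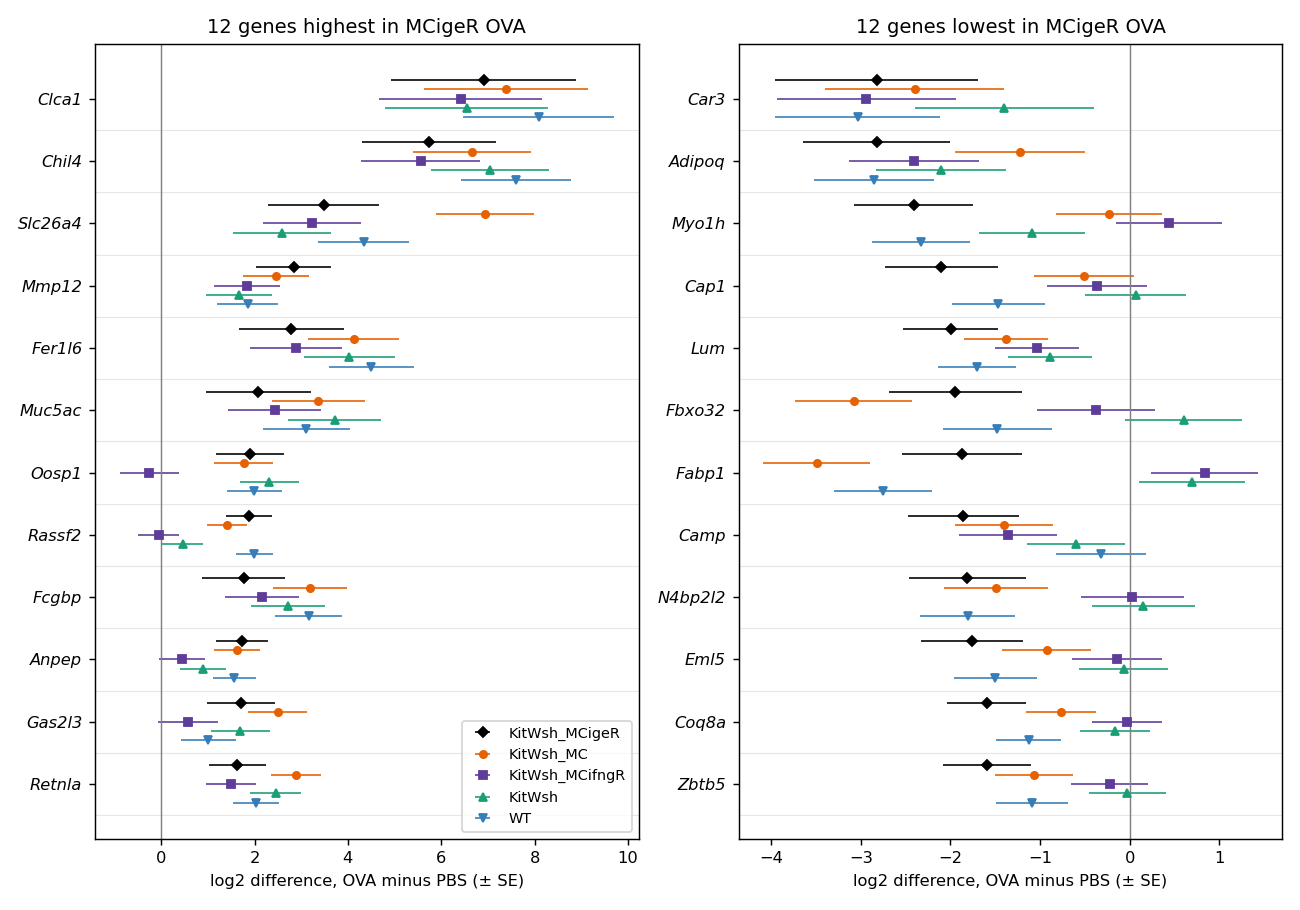
Log2 difference, OVA minus PBS, ± standard error (horizontal axis) in each of 5 kinds of mice for the 12 genes highest (left) and lowest (right) in MCigeR OVA lungs, from the fit of 35 arrays. Clca1 and Chil4 lie between 5.56 and 8.09 in each kind, while Fabp1 is at -1.87 in MCigeR, -3.49 in KitWsh_MC and -2.75 in WT mice but above 0 in KitWsh_MCifngR and KitWsh mice.

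The difference of the OVA response itself was tested between MCigeR and KitWsh_MC mice, who differ by their engraftment label and by the FcεRIγ deficiency. Of 11384 genes 10 were called (limma, adjusted p under 0.05), 1 with a higher response in MCigeR mice (0.00878%) and 9 with a lower one (0.0791%), and 1228 (10.8%) had an unadjusted p under 0.05. The 9 included cytokines, myeloid genes and genes of cell division, and in each the KitWsh_MC response was positive.

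Rnase2a, a ribonuclease of the eosinophil-associated family, had 3.41, 2.34, 2.82 and 3.97 in MCigeR OVA lungs and 2.19 and 2.28 in MCigeR PBS lungs, all under log2 5. In KitWsh_MC mice it had 6.56, 6.28, 6.53 and 6.55 under OVA, against 2.25, 2.19 and 2.19 under PBS (fitted difference of responses -3.37 ± 0.44). With 3 of the 4 groups under log2 5, the fitted difference is no measured size, which holds for Il6 and Osm too. Il6, the acute-phase cytokine, was at 2.36 to 2.55 in MCigeR OVA lungs and 2.36 to 2.38 in MCigeR PBS lungs, the bottom of its scale, and at 5.83, 6.54, 6.27 and 4.53 in KitWsh_MC OVA lungs, against 2.36 in each KitWsh_MC PBS lung (-3.38 ± 0.53). Osm, a cytokine of the same family, stayed under log2 5 in MCigeR lungs and reached 4.98 to 6.05 in KitWsh_MC OVA lungs (-1.95 ± 0.31). The MCigeR OVA arrays did not overlap the KitWsh_MC OVA arrays in any of these.

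Ch25h, a cholesterol hydroxylase of macrophages, was higher under OVA in both kinds of mice. It stood at 8.28, 7.73, 7.27 and 7.77 in MCigeR OVA lungs and 6.57 and 5.91 in MCigeR PBS lungs, and at 9.95, 9.94, 10.03 and 10.20 in KitWsh_MC OVA lungs, against 5.72, 6.04 and 5.83 in PBS lungs (-2.65 ± 0.34). Clec4n (dectin-2), a myeloid lectin that signals through the γ chain, had 8.30, 7.57, 7.28 and 7.73 in MCigeR OVA lungs and 8.46 and 6.74 in MCigeR PBS lungs, and 9.41, 9.11, 9.27 and 9.54 in KitWsh_MC OVA lungs, against 6.39, 5.87 and 5.87 (-3.17 ± 0.52). Fxyd4, a regulator of the sodium pump, had 5.84 on MCigeR OVA array 1 and 3.37 to 4.00 on the others, against 3.77 and 3.97 in MCigeR PBS lungs. In KitWsh_MC OVA lungs it had 7.63 to 8.41, against 2.77 to 3.83 in PBS lungs (-4.38 ± 0.72). Both PBS groups were under log2 5 for Fxyd4, so this fitted difference is no measured size.

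For Hspa1b, the inducible heat shock protein, the PBS groups differed more than the OVA groups. It had 12.28, 12.15, 11.28 and 11.74 in MCigeR OVA lungs and 12.71 and 12.60 in MCigeR PBS lungs, and 11.00, 10.84, 10.87 and 10.48 in KitWsh_MC OVA lungs, against 8.80, 9.02 and 8.87 in PBS lungs (-2.69 ± 0.34). Klf15, a glucocorticoid-induced transcription factor, was the 1 gene with a higher response. It had 9.40 to 10.00 in MCigeR OVA lungs and 9.29 and 9.55 in MCigeR PBS lungs, and 7.53 to 8.33 in KitWsh_MC OVA lungs, against 9.65 to 9.79 in PBS lungs (2.07 ± 0.32). Spc25 and Cdca3, of the mitotic spindle and cell cycle, differed by -2.68 ± 0.44 and -2.01 ± 0.33. All KitWsh_MC PBS arrays were under log2 5 for Spc25, so its fitted difference is no measured size. Cdca3, Ch25h, Osm and Spc25 were named after their values were seen.

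**Figure D5:**
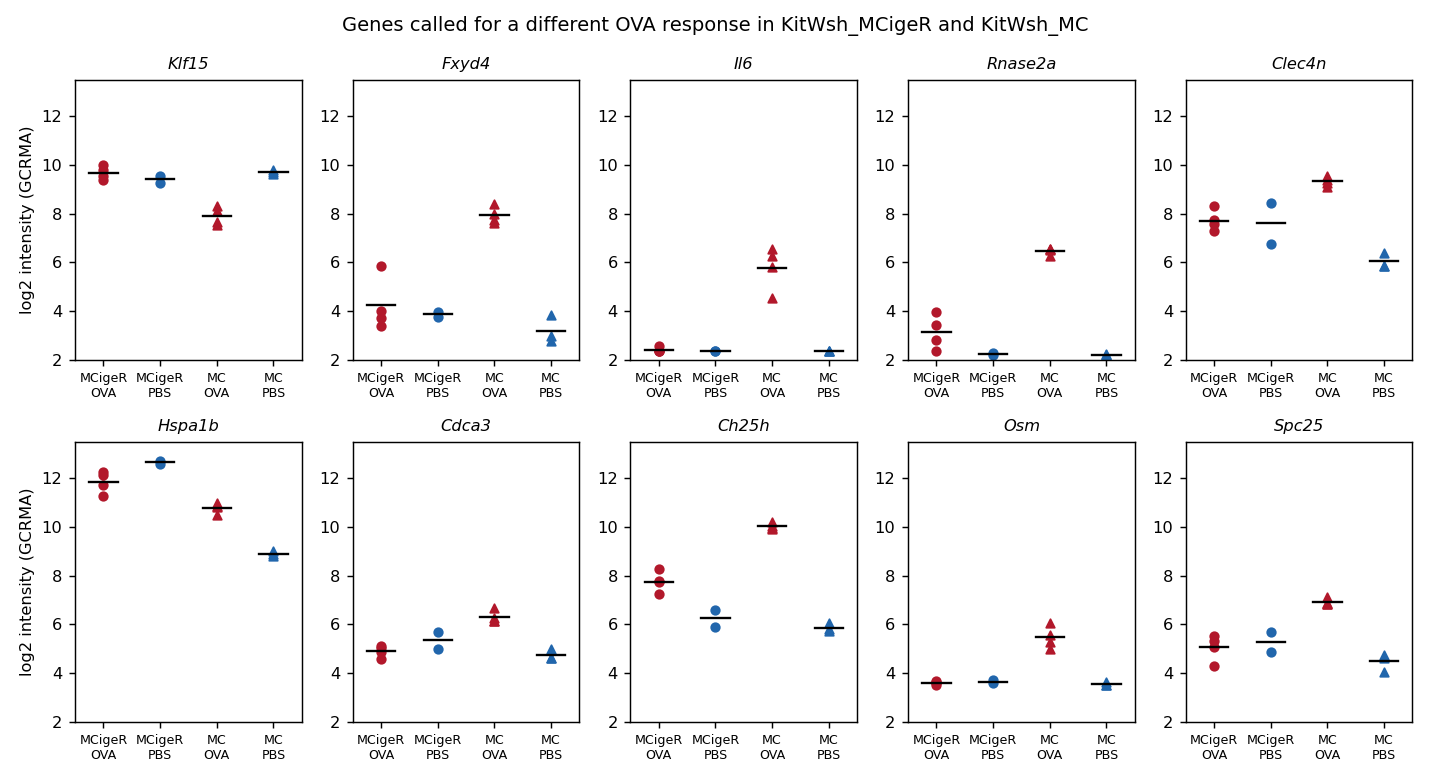
Log2 intensity (vertical axis) of the 10 genes called for a different OVA response, by array, in MCigeR (circles) and KitWsh_MC (triangles) lungs; red is OVA, blue PBS, and black lines are group means. Rnase2a lies at 6.28 to 6.56 in KitWsh_MC OVA lungs and at 2.34 to 3.97 in MCigeR OVA lungs, and Hspa1b at 12.60 and 12.71 in MCigeR PBS lungs and 8.80 to 9.02 in KitWsh_MC PBS lungs.

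Whole lists differed in the same contrast without more calls. Of 15 cell division genes, 15 had a lower response in MCigeR mice, with a median response of -0.07 in MCigeR mice and 2.15 in KitWsh_MC mice, and none was called by limma. Of 20 inflammatory cytokines and chemokines 19 had a lower response (medians 0.42 in MCigeR and 2.72 in KitWsh_MC mice) and 1, Il6, was called. All 13 acute-phase genes and all 12 goblet cell and mucus genes had a lower response, the mucus genes with medians of 1.48 in MCigeR and 3.28 in KitWsh_MC mice and 1 call, Fxyd4. Over all genes 48.9% had a lower response, with a median of 0.01. On the 6 MCigeR arrays alone, 14 of the cytokine and chemokine, 10 of the acute-phase and 10 of the mucus genes passed the filter. The others, Il6 and Fxyd4 among them, passed only with the help of KitWsh_MC arrays. Where those are OVA arrays, this favours a lower response in MCigeR mice. The members of a list share their arrays. Over all KitWsh_MC arrays the 3′ to 5′ differences ran from 2.21 to 6.23 for actin and 2.13 to 6.77 for Gapdh. On the 6 MCigeR arrays they ran from 1.46 to 2.58 and from 0.82 to 2.13. The part of RNA quality in this contrast, Hspa1b included, was not tested. KitWsh_MC OVA array 2 had the actin difference of 6.23 and a median correlation of 0.882 with the other arrays. Without that array 66 genes were called in place of 10, an alternative chosen after seeing the data. With the degraded PBS array 2 kept in, 2 genes were called, and leaving out each MCigeR array in turn gave 0 (without PBS array 1) to 78 (without OVA array 1).

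Against unengrafted KitWsh mice the response differed in 4 of 11290 genes (3 higher, 0.0266%; 1 lower, 0.00886%; limma), with 1769 (15.7%) at an unadjusted p under 0.05. Ear3, of the eosinophil-associated ribonucleases, had 7.30, 7.93, 7.84 and 8.34 in MCigeR OVA lungs and 8.28 and 8.34 in MCigeR PBS lungs, and 8.47, 8.90, 8.69 and 9.04 in KitWsh OVA lungs, against 6.59, 6.74 and 5.95 in PBS lungs (-2.81 ± 0.36). Ear3 and Rnase2a belong to a family of close paralogs, Hspa1b is nearly identical to Hspa1a and Chil4 to Chil3, so their probes may also read the paralog. Rbmxl2, T2 and Efr3b had higher fitted responses by 1.80 ± 0.27, 1.47 ± 0.20 and 1.27 ± 0.19, at levels between 3.93 and 6.74. Their differences were 1.17, 0.39 and 0.21 in MCigeR mice and -0.64, -1.08 and -1.06 in KitWsh mice. T2 was over log2 5 only in KitWsh PBS lungs. Efr3b was under log2 5 in all KitWsh OVA lungs, and Rbmxl2 in both MCigeR PBS lungs used. The fitted differences of these 3 genes are therefore no measured sizes. All 11 neutrophil genes had a lower response in MCigeR mice, with medians of -0.67 in MCigeR and 0.36 in KitWsh mice, as had all 16 cell division genes (-0.01 and 0.76), and none of either was called by limma. Of these 2 lists 10 and 15 genes passed the filter on the 6 MCigeR arrays alone. Over all genes the median difference of the response was 0.12. No gene was called by limma with PBS array 2 kept in or without PBS array 1, and 54 were without OVA array 3.

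Against WT mice 2 of 11284 genes were called (0.00886% in each direction; limma), with 619 (5.49%) at an unadjusted p under 0.05. Spon2, a secreted matrix protein, had 6.60, 7.00, 6.67 and 6.33 in MCigeR OVA lungs and 6.44 and 6.94 in MCigeR PBS lungs. In WT mice it had 4.25, 3.48, 4.17 and 4.13 in OVA lungs, against 7.42, 6.88, 6.80 and 6.55 in PBS lungs (2.87 ± 0.34). All WT OVA arrays were under log2 5 for Spon2, so this fitted difference is no measured size. Tef, a clock output factor, had 9.82, 9.79, 9.65 and 9.62 in MCigeR OVA lungs and 9.90 and 9.90 in MCigeR PBS lungs, and 10.67 to 10.95 in WT OVA lungs, against 9.19 to 9.88 in PBS lungs (-1.51 ± 0.21). This contrast was added after seeing the data. Without WT OVA array 4, 11 genes were called, and none by limma with MCigeR PBS array 2 kept in. WT mice also differ from MCigeR mice in having their own mast cells and an intact Kit locus.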

How the data were processed

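Total lung RNA, extracted with TRIzol per the labels, was hybridised to Affymetrix mouse arrays, 1 per sample. The authors deposited log2 intensities from GCRMA, whose version the submitters' processing notes leave out. This method corrects background by probe sequence and quantile-normalises, so a degraded array is scaled to the others and low values sit near a floor (2.19 on these arrays) where they have no order. The values were not normalised again.

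Of 45101 probe sets, 34958 had 1 gene symbol, 932 several and 9211 none in the platform annotation, and 64 controls were left out. Symbols were updated by Entrez ID to RefSeq GRCm38.p6, which also gave the promoters. The brightest probe set by the mean of 36 arrays stood for each of 18193 genes, and the 11087 over log2 5 in at least 2 of the 6 arrays were tested with limma 3.58.1 in R 4.3.3 (lmFit and eBayes, two-sided, Benjamini-Hochberg, 4 residual degrees of freedom, 7.69 after moderation). "At least" folds set a mean against log2 5 where no array of the lower group reached it. The difference between 2 responses was an interaction contrast over the 4 groups concerned, with the same filter. Since no label states that replicates came from separate animals, the p-values reflect only how much these arrays differ, and precision is limited by how few there are. No 2 arrays were identical.

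The comparison, its members and the 37 gene lists (643 genes) were chosen with earlier results of these data known. Named were the 12 highest and 12 lowest differences among genes whose groups do not overlap (none being called), passing over immunoglobulin segments and predicted genes, up to 4 members of each list by size, fixed mast cell and asthma genes, and up to 5 called genes per direction of each interaction. Other list members given by name, and the immunoglobulin count, were picked with their values in view. The procedure was tested on simulated data. Alternatives were array 2 kept in, other spreads, filters, normalisations and probe set rules, and each array left out.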

Additional observations from a re-analysis of the deposited data

Results flagged for a closer look

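Among 150 genes examined, 12 had 1 OVA array far from the other 3, by a gap that Dixon's test would give in about 1 in 20 groups by chance. OVA array 3 stood apart in 5: N4bp2l2 was at 4.88 (others 2.69 to 2.83), Eml5 at 6.39 (5.27 to 5.40), Zbtb5 at 7.05 (5.39 to 5.48), Hdc at 11.02 (10.66 to 10.69) and Rbmxl2 at 5.47 (others 5.55). In N4bp2l2, Eml5 and Zbtb5 that array lay toward the PBS arrays. OVA array 1 stood apart in 4: Tslp was at 6.13 (others 6.78 to 6.91), Ifngr2 at 7.67 (6.53 to 6.60), Ptges at 6.19 (5.60 to 5.67) and Il6 at 2.55 (2.36 to 2.38). OVA array 2 was low for Slc5a1, at 5.63 (others 6.36 to 6.45), and for Il1b, at 5.71 (6.65 to 6.71). OVA array 4 was high for Adipoq, at 3.44 (2.62 to 2.74). For Il6, Adipoq and N4bp2l2 all OVA arrays were under log2 5, where values have no order. For Rbmxl2 the other 3 values were identical, so that any gap meets this rule.

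The OVA response differed between kinds of mice in 16 genes by limma's interaction test. Against KitWsh_MC mice the MCigeR response was higher by 2.07 for Klf15. It differed by -4.38 for Fxyd4, -3.38 for Il6, -3.37 for Rnase2a, -3.17 for Clec4n, -2.69 for Hspa1b, -2.68 for Spc25, -2.65 for Ch25h, -2.01 for Cdca3 and -1.95 for Osm. Against KitWsh mice it differed by 1.80 for Rbmxl2, 1.47 for T2, 1.27 for Efr3b and -2.81 for Ear3. The difference against WT mice was 2.87 for Spon2 and -1.51 for Tef. The values for Fxyd4, Il6, Rnase2a, Osm, Spc25, Rbmxl2, T2, Efr3b and Spon2 are fitted and no measured sizes. In each of these genes a whole group of arrays lay under log2 5.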

How the results depend on the processing

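With 2 PBS arrays, each difference leans on the pair, and signal near the floor limits Arg1, Tpsb2 and the IgE receptor chains. No gene was called with PBS array 2 kept in, the spread of 35 arrays, stricter filters, either scaling, the mean of probe sets, or the trended or robust fit (limma). One gene (1) was called with no filter, 3 at an adjusted p under 0.1, and 0 to 16 with each array left out, 16 without OVA array 3. The spread of all 36 arrays, which keeps PBS array 2, gave 2478. Genes with all OVA arrays above all PBS arrays numbered 1109 to 2924 with an array left out, and those below 1084 to 2429, since fewer arrays must be separated, and 331 lay below with PBS array 2.

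Of 2402 differences of 135 named genes under alternatives, 2285 kept their sign without a call, 69 were called and 48 changed sign. Keeping PBS array 2, by either spread, gave 0.37 for Ms4a1, -0.54 for Rrm2, 0.97 for Myl7, 0.43 for Dcn, 0.35 for Il1b, 0.50 for Mmp9, 0.18 for Nr1d2, 0.42 for Tef, 0.64 for Prdm1, -0.10 for Cfp, 1.10 for Mlf1, 0.31 for Pdpn, 0.39 for Ednrb, 0.94 for Cldn5, 0.54 for Eng and 0.32 for Ddit3. The mean of probe sets gave 0.0023 for Csf1r, 0.017 for Col5a1, 0.15 for Sox17, 0.021 for Eng and -0.19 for Hsp90b1. With each array left out, differences spanned -2.29 to 0.11 for Cr2, -1.42 to 0.30 for Ms4a1 and -2.73 to 0.024 for Nppa, positive without PBS array 1. They spanned -0.18 to 3.08 for Ccl8, -0.34 to 2.47 for Saa3, -0.33 to 2.16 for Cd5, -0.60 to 2.58 for Mzb1, -0.32 to 1.65 for Ighm, -0.16 to 1.25 for Top2a, -0.43 to 1.01 for Rrm2 and -0.68 to 3.44 for Reg3g, negative without PBS array 3. A lone PBS array was assumed to vary like the OVA arrays.

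For the response against KitWsh_MC mice, 2 genes were called with PBS array 2, 3 with the spread of 35 arrays, 28 with no filter, 21 after quantile normalisation, 21 after centring and 0 to 78 with an array left out. Against KitWsh mice 0 were called with PBS array 2 and 0 with the spread of 35 arrays (limma), and 0 to 54 with an array left out. Against WT mice 0 were called with PBS array 2, 1 with the spread of 35 arrays, 10 with no filter and 0 to 11 with an array left out. The cause of these changes was not tested. No paired analysis was possible because the array numbers in the titles are unique, so the groups share no replicate numbers.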
